A study of Danio rerio with 11 samples.

Results

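Ribosome biogenesis genes were examined in zebrafish melanoma cells and melanocytes by RNA-seq of sorted cells. The genes encode nucleolar proteins that transcribe, modify, cut and assemble ribosomal RNA, and they were taken as the rows of the expression table whose gene name stands on a list of 42 names. Of these names, 31 matched a row, among the 24441 genes of the table, and 11 were not analysed here (*rrp1*, *nop58*, *utp20*, *polr1a*, *nop14*, *nop10*, *brix1*, *rrn3*, *utp4*, *utp6* and *nop53*). The table holds the gene *utp4* under an older symbol, *cirh1a*, so it lies outside the selection, and its values are given at the end.

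The samples fell into 3 groups. The melanoma group (MA, n = 5 tumors from 3 fish) consisted of GFP-positive cells from tumors of fish with the *BRAFV600E* transgene, homozygous *p53* loss of function (*p53* lf/lf) and the reporter *crestin:EGFP*. MA3A, MA3B and MA3C were tumors near the dorsal fin, on the tail and on the head of a single fish. The heterozygous melanocytes (MC_Het, n = 3 fish) were mCherry-positive skin cells of *BRAFV600E*/+, *p53* +/lf, *mitfa*+/- fish with the MiniCoopR *mitfa:mCherry* construct. The wild-type melanocytes (MC_WT, n = 3 fish) were mCherry-positive skin cells of AB* fish that carried the same MiniCoopR *mitfa:mCherry* construct. In these lines *BRAFV600E* is driven by the promoter of *mitfa*, a gene of the pigment cell lineage. Melanoma and melanocytes thus differed in sort reporter and tissue as well as in genotype and disease, and these cannot be told apart. Ages of the fish were not given in the sources used here.

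A ribosome is built in the nucleolus. RNA polymerase I transcribes a long precursor RNA, small nucleolar RNAs with their proteins (snoRNPs) guide its chemical modification, and large protein assemblies fold and cut it into the RNAs of the small and the large subunit, which leave the nucleus separately. A large nucleolus is a long-known feature of fast-growing and malignant cells. The values below are counts per 1000000 reads (CPM), rescaled between samples by the median of the gene-wise ratios. Per-sample values are given in the order MA1, MA2, MA3A, MA3B, MA3C, then MC_Het1 to MC_Het3 and MC_WT1 to MC_WT3.

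Library totals were 14718024 to 22612463 reads, and the 31 genes together took 0.298% to 0.483% of the library in MA, against 0.115% to 0.147% in MC_Het and 0.0859% to 0.131% in MC_WT. The melanocyte samples also held many transcripts of other skin cells. Summed over the 7 keratinocyte markers in the table (*krt4*, *krt5*, *krt17*, *epcam*, *cldni*, *tp63* and *evpla*), levels were 145 to 493 rescaled CPM in MA, against 48599 to 115354 in the melanocyte samples, and all 7 were lower in MA. The 10 melanocyte markers summed to 3633 to 11085 rescaled CPM in MA, 1293 to 5296 in MC_Het and 494 to 1034 in MC_WT, so that keratinocyte markers outweighed melanocyte markers in each melanocyte sample. Fibroblast markers summed to 7.41 to 75.6 rescaled CPM in MA, against 711 to 4223 in melanocyte samples, and 7 of 7 were lower in MA. Leukocyte markers summed to 19.4 to 116 in MA, against 430.1 to 1361 in melanocyte samples, and 7 of 8 were lower in MA. Of the markers tested, 4 of 5 muscle, 3 of 3 endothelial, 2 of 4 Schwann cell, 1 of 2 xanthophore and 3 of 6 erythrocyte genes were lower in MA as well. Lower and higher here mean an adjusted p under 0.05 in the limma test described below, beside 27.7% and 23.8% of all genes tested. With edgeR 0 of the 6 erythrocyte genes were lower. Erythrocyte sums overlapped, at 0.307 to 99.2 rescaled CPM in MA and 28.2 to 164.7 in melanocyte samples. In the other direction, 1 of 4 Schwann cell markers tested (*sox2*, log2 fold change 2.79) and 1 of 3 iridophore markers (*alx4a*, log2 fold change 2.48) were higher in MA, named after their values were seen. Of the melanocyte markers, 8 of 10 were higher and 1 was lower. None of the keratinocyte, melanocyte, fibroblast and leukocyte markers was at 0 in every sample of a group. Their part in the results was not tested. In bulk samples, fewer cells of a type and less RNA per cell cannot be told apart.

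Melanoma was first compared with all 6 melanocyte samples, as the study pooled both genotypes. Ribosome biogenesis genes were broadly higher in MA. Of the 31 genes, 25 rose, 0 fell and 6 did not pass the test (*ncl*, *nop2*, *pes*, *rrs1*, *noc3l* and *utp3*). A gene passed at an adjusted p under 0.05 (limma on log2(rescaled CPM + 1), Benjamini-Hochberg over 14706 genes), and of all genes tested 23.8% rose and 27.7% fell. No gene of the 31 was lower at an unadjusted p under 0.05 either, and edgeR and DESeq2 on recovered reads also gave 25 higher and 0 lower. Shares of all genes were not counted with edgeR or DESeq2. The median log2 fold change of the 31 was 1.14, beside 0.04 for all genes tested, and 30 of 31 changes were positive, beside 51.2% of all genes. All 31 passed the filter on low values.

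The 31 genes were also summed within each sample. The summed level of the 31 genes was 2192, 3927, 3544, 3106 and 3293 rescaled CPM in MA, against 1308, 1758 and 1523 in MC_Het and 1254, 1472 and 1676 in MC_WT. Its mean was 3212 ± 648 in MA (SD, n = 5), against 1498 ± 198 in melanocytes (SD, n = 6). The MA samples lay above the melanocyte samples without overlap, and MA1 was the lowest of the tumors. MA1 had the lowest value of the 5 tumors for 18 of the 31 genes and the highest for 0. The shares of all genes lowest or highest in MA1 were not counted. For 13 of the 31 genes every MA sample was above every melanocyte sample, and for 0 every MA sample was below, beside 12.5% and 18.6% of all genes tested. Of the 13, *nop16* had its lowest tumor (33.55) barely above its highest melanocyte sample (33.54). Under other scalings the count of genes above was 12 to 23, beside 13.5% to 25.9% of all genes tested.

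**Figure D1:**
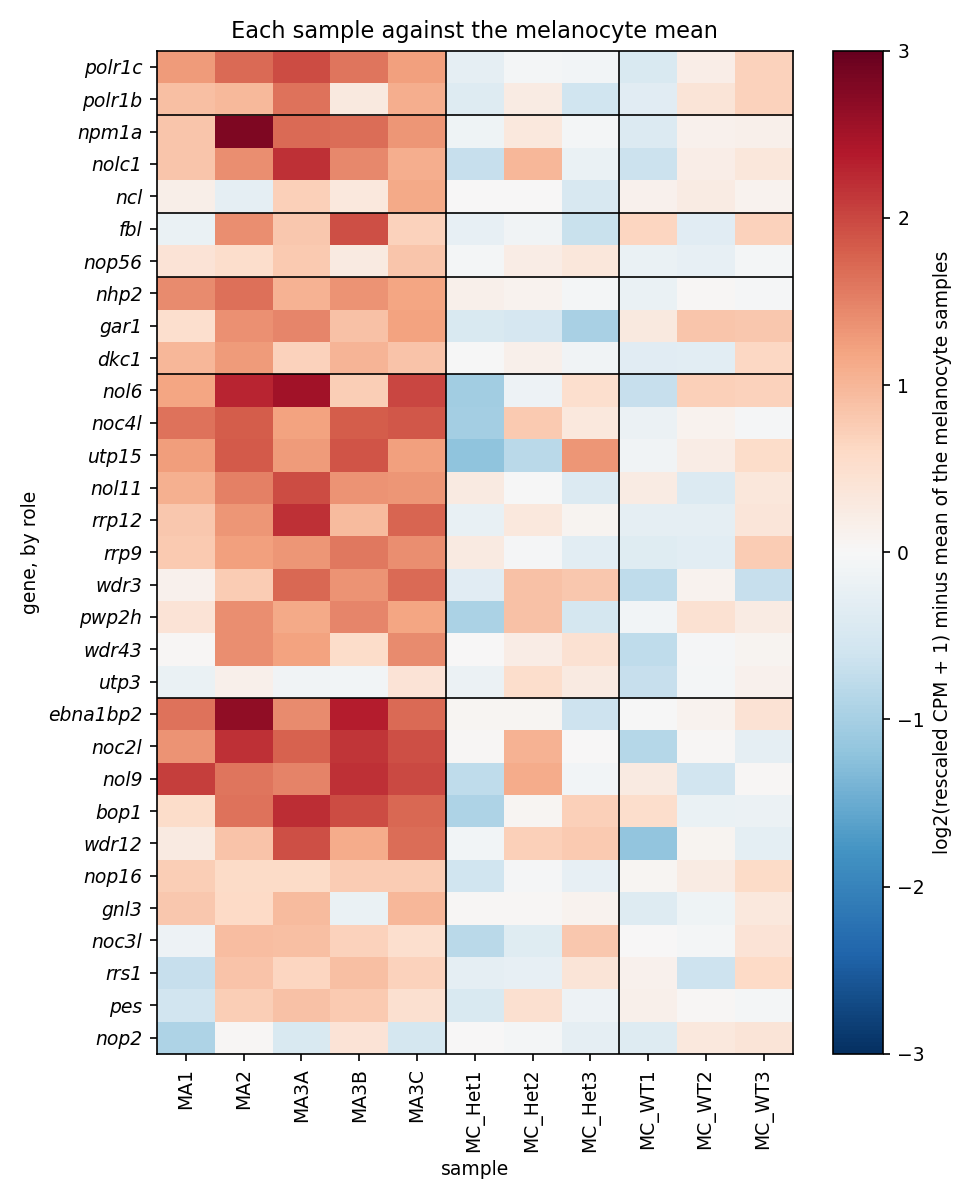
Level of each ribosome biogenesis gene in each sample as log2(rescaled CPM + 1) minus the mean of the 6 melanocyte samples. Rows are genes by role, in the order rRNA transcription, scaffold and chaperone, box C/D, box H/ACA, small subunit and large subunit, with lines between roles, and columns are MA, MC_Het and MC_WT samples. MA columns are mostly red, MA1 is the palest of them, and the *nop2* row at the bottom holds no common shift.

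Fish and scaling moved these counts. With fish as a random block, which ties the 3 tumors of fish MA3 together, 16 of the 25 calls remained (*fbl*, *gar1*, *gnl3*, *nop16*, *nop56*, *polr1b*, *wdr12*, *wdr3* and *wdr43* were lost), beside 19.1% of all genes higher. With those tumors averaged into 1 sample, 16 also remained, with *pwp2h* lost and *gnl3* kept, beside 18.5% of all genes. With CPM as deposited, without rescaling, 30 genes were higher, beside 42.2% of all genes, and the median of all genes moved to 0.58 and that of the 31 to 1.80. On that scale 23 of the 31 genes had every tumor above every melanocyte sample, beside 25.9% of all genes, and 30 were higher than in MC_WT, beside 37.8%. A stricter threshold, which the study used for its own calls, was an adjusted p under 1e-06 with a log2 fold change above 1. With it, 0 of the 31 genes were higher than in all melanocytes, MC_WT or MC_Het in the limma fits. Of all genes, 0.544%, 0.15% and 0.129% were higher in these fits. With DESeq2 on recovered reads, *ebna1bp2*, *nhp2*, *noc2l*, *nol11*, *npm1a* and *polr1c* passed this threshold over all melanocytes. *nhp2* and *noc2l* passed it over MC_WT with DESeq2, and *ebna1bp2*, *gar1*, *nhp2* and *polr1c* over MC_Het. The share of all genes passing it with DESeq2 was not counted. Of all genes called with limma at an adjusted p under 0.05, 46.2% were higher with rescaling and 66.5% were higher without it.

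**Figure D2:**
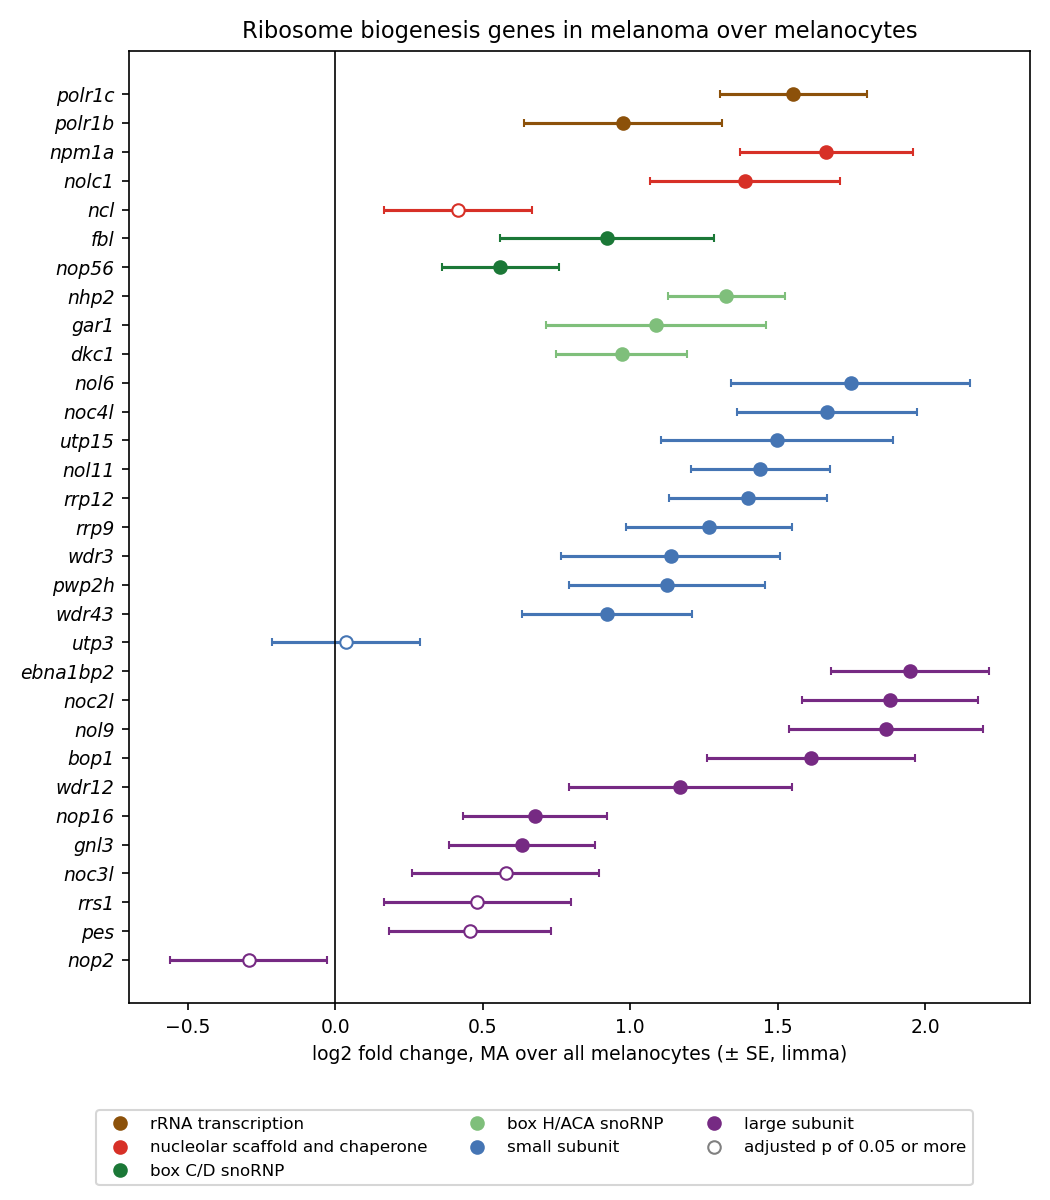
log2 fold change of MA over all melanocytes (horizontal axis) with its standard error from limma, for each gene, coloured by role. Filled points passed an adjusted p under 0.05, 25 of 31, and the open points are *ncl*, *utp3*, *noc3l*, *rrs1*, *pes* and *nop2*.

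Among the genes of rRNA transcription, both that were measured rose (median log2 fold change 1.26). *polr1c* (ENSDARG00000039400) encodes a subunit shared by RNA polymerases I and III. Its level was 60.9, 82.5, 98.5, 77.7 and 59.5 rescaled CPM in MA, against 20.2, 23.6 and 23.2 in MC_Het and 17.8, 28.5 and 40.4 in MC_WT. Each tumor was above each melanocyte sample, with a log2 fold change of 1.55 (SE 0.25, adjusted p = 0.000101, limma). *polr1b* (ENSDARG00000077469) encodes the second-largest subunit of RNA polymerase I. Its level was 15.4, 16.1, 26.1, 9.67 and 17.7 rescaled CPM in MA, against 5.71, 9.34 and 4.79 in MC_Het and 5.92, 10.5 and 13.1 in MC_WT. MA3B overlapped the melanocytes, and MA was higher with a log2 fold change of 0.98 (SE 0.34, adjusted p = 0.0239, limma). The call of *polr1b* ended with the fish block (adjusted p = 0.0677, limma) and without MA3A.

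Of the nucleolar scaffold and chaperone genes, 2 of 3 rose (median 1.39). *npm1a* (ENSDARG00000014329) encodes a nucleophosmin, an abundant chaperone of the outer nucleolus that binds ribosomal proteins and histones. Its level was 314, 1234, 577, 569 and 447 rescaled CPM in MA, against 163, 223 and 170.3 in MC_Het and 132, 192 and 197 in MC_WT. MA2 was more than 2 times any other tumor, and no tumor overlapped a melanocyte sample. MA was higher with a log2 fold change of 1.67 (SE 0.29, adjusted p = 0.000224, limma). *npm1a* also had the highest level per gene length of the 31, in MA and in melanocytes, at 414 RPKM in MA and 75.96 RPKM in melanocytes (means of the deposited reads per gene length and library size (RPKM), without rescaling). Zebrafish have another nucleophosmin gene, *npm1b*, and reads that fit both genes could not be told apart here. *nolc1* (ENSDARG00000024561) encodes Nopp140, a phosphoprotein that carries snoRNPs through the nucleolus and Cajal bodies. Its level was 96.7, 145, 252, 149 and 117 rescaled CPM in MA, against 33.1, 108 and 47.4 in MC_Het and 34.2, 62.8 and 68.7 in MC_WT. MC_Het2 lay within the range of the tumors, and MA was higher with a log2 fold change of 1.39 (SE 0.32, adjusted p = 0.00215, limma). *ncl*, nucleolin, an RNA-binding protein of nascent pre-rRNA, did not pass the test, at 275 ± 105 rescaled CPM in MA and 197 ± 31.2 in melanocytes (SD, n = 5 and 6), with a log2 fold change of 0.42 (SE 0.25, adjusted p = 0.177, limma). 

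Both box C/D snoRNP genes rose (median 0.74). Box C/D snoRNPs place methyl groups on ribose in rRNA. *fbl* (ENSDARG00000053912) encodes fibrillarin, their methyltransferase. Its level was 26.2, 81.4, 53.8, 119 and 49.9 rescaled CPM in MA, against 25.5, 28.3 and 18.8 in MC_Het and 48.4, 24.05 and 50.1 in MC_WT. MA2, MA3A and MA3B lay above all melanocyte samples, while MA1 and MA3C lay within their range. The difference was a log2 fold change of 0.92 (SE 0.36, adjusted p = 0.0447, limma). It was close to the threshold: the call ended when any of 8 of the 11 samples was left out (MA2, MA3A, MA3B, MA3C, MC_Het1, MC_Het2, MC_Het3 or MC_WT2). It also ended with the fish block (adjusted p = 0.131, limma), with limma fitted without a trend and with no filter on low values. *nop56* (ENSDARG00000012820) encodes a core scaffold of the same particle. Its level was 256, 276, 329.6, 232 and 341 rescaled CPM in MA, against 184, 224 and 244 in MC_Het and 166, 163 and 186 in MC_WT. The lowest tumor, MA3B, was below MC_Het3, and MA was higher with a log2 fold change of 0.56 (SE 0.20, adjusted p = 0.0277, limma). That call ended with the fish block (adjusted p = 0.0858, limma), with limma fitted without a trend and without MA3A, MA3C, MC_WT1 or MC_WT2. *nop56* ranked 3 by level per length in MA and 2 in melanocytes, at 111 RPKM in MA and 47.7 RPKM in melanocytes.

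All 3 box H/ACA genes rose (median 1.09). These particles convert uridine to pseudouridine in rRNA, and dyskerin is also part of telomerase. *nhp2* (ENSDARG00000069422) encodes a core protein that binds the guide RNA. Its level was 96.9, 114, 74.2, 92.9 and 82.2 rescaled CPM in MA, against 40.02, 38.7 and 34.4 in MC_Het and 30.98, 36.4 and 34.8 in MC_WT. The groups did not overlap, with a log2 fold change of 1.33 (SE 0.20, adjusted p = 5.02e-05, limma). *gar1* (ENSDARG00000076526) encodes another core protein of the particle. Its level was 11.9, 22.6, 24.1, 15.8 and 20.1 rescaled CPM in MA, against 5.64, 5.44 and 3.63 in MC_Het and 10.2, 15.1 and 14.9 in MC_WT. MC_Het samples were the lowest, MA1 lay within the MC_WT range, and MA was higher with a log2 fold change of 1.09 (SE 0.37, adjusted p = 0.0234, limma). That call ended with the fish block (adjusted p = 0.057, limma) and without MA2 or MA3A. *dkc1*, dyskerin, the pseudouridine synthase itself, was at 122 ± 19.1 rescaled CPM in MA and 62.7 ± 17.05 in melanocytes (SD, n = 5 and 6) without overlap, and its level was higher with a log2 fold change of 0.97 (SE 0.22, adjusted p = 0.00192, limma).

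**Figure D3:**
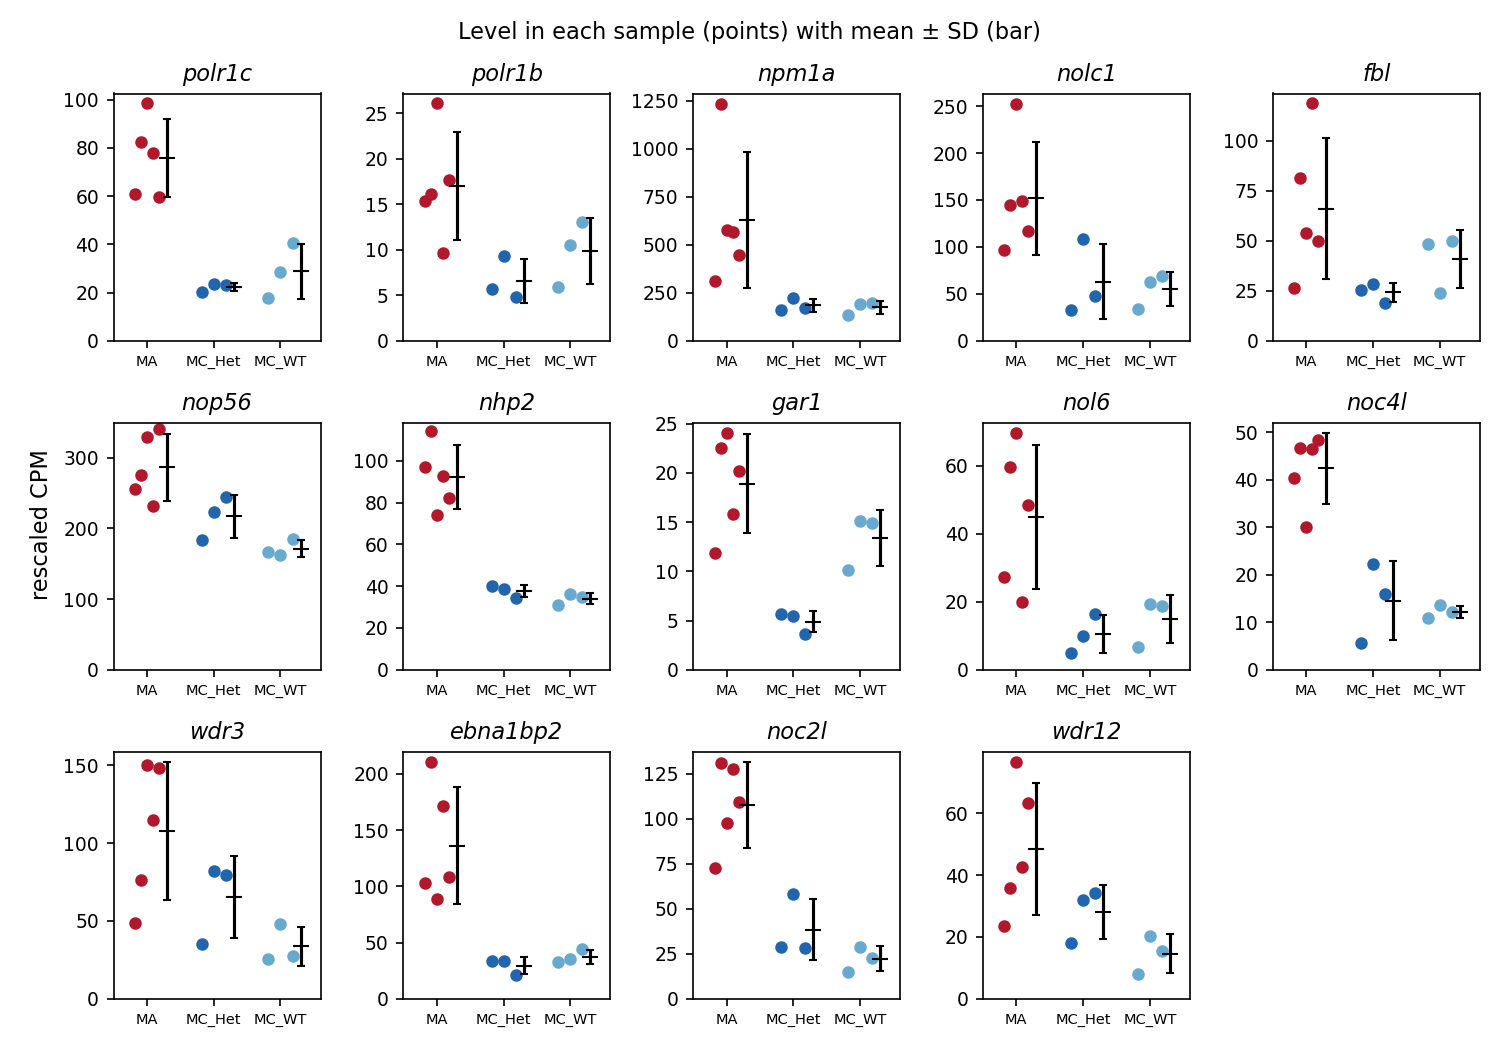
Level in each sample (points) and mean with SD (bars) for the 14 genes whose values are given in full, with MA, MC_Het and MC_WT from left to right. The vertical axes are rescaled CPM starting at 0. *nhp2*, *ebna1bp2*, *noc2l*, *noc4l*, *nol6*, *polr1c* and *npm1a* show no overlap between MA and either melanocyte group.

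Of the small-subunit genes, which act in the early 90S assembly (the small-subunit processome) or in later 40S maturation, 9 of 10 rose (median 1.33). *nol6* (ENSDARG00000059711) encodes the homologue of yeast Utp22, which joins the processome. Its level was 27.3, 59.5, 69.4, 19.8 and 48.4 rescaled CPM in MA, against 5.04, 10.1 and 16.4 in MC_Het and 6.65, 19.2 and 18.9 in MC_WT. The tumors ranged widely, MA3B was only just above MC_WT2, and MA was higher with a log2 fold change of 1.75 (SE 0.40, adjusted p = 0.00214, limma). *noc4l* (ENSDARG00000045565) encodes the homologue of yeast Noc4, which is needed for the small subunit. Its level was 40.4, 46.7, 30.1, 46.4 and 48.3 rescaled CPM in MA, against 5.64, 22.2 and 15.9 in MC_Het and 10.96, 13.5 and 12.2 in MC_WT. No tumor overlapped the melanocytes, with a log2 fold change of 1.67 (SE 0.31, adjusted p = 0.000325, limma). *wdr3* (ENSDARG00000011079) encodes the homologue of yeast Utp12, a WD-repeat protein of the U3 complex. Its level was 48.8, 76.4, 150.4, 115 and 148 rescaled CPM in MA, against 34.9, 82.1 and 79.3 in MC_Het and 25.7, 48.2 and 27.3 in MC_WT. MA1 and MA2 lay below the highest MC_Het samples, while MA3A, MA3B and MA3C were above all, and MA was higher with a log2 fold change of 1.14 (SE 0.37, adjusted p = 0.0181, limma). That call ended with the fish block (adjusted p = 0.0676, limma) and without MA3A.

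The other small-subunit genes had positive changes, and all but *utp3* passed the test. *nol11*, whose human protein acts in rRNA transcription and early processing, was at 106 ± 26.1 rescaled CPM in MA and 38.5 ± 8.86 in melanocytes (SD, n = 5 and 6; log2 fold change 1.44). *utp15*, a component of the t-UTP complex that binds nascent pre-rRNA, changed by 1.499, *rrp12*, an export factor of ribosomal subunits in yeast, by 1.399, and *rrp9*, a protein specific to the U3 snoRNP, by 1.27. *pwp2h*, homologue of yeast Utp1, had a log2 fold change of 1.13, and *wdr43*, of Utp5, 0.92. *utp3*, homologue of yeast Sas10, did not pass the test, at 37.2 ± 6.996 rescaled CPM in MA and 37.05 ± 10.4 in melanocytes (SD, n = 5 and 6; log2 fold change 0.04). 

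Of the large-subunit genes, 7 of 11 rose and 4 did not pass the test (median 0.68). *ebna1bp2* (ENSDARG00000054980) encodes the homologue of yeast Ebp2, an early 60S assembly factor. Its level was 103, 210.5, 88.4, 171 and 108 rescaled CPM in MA, against 33.8, 33.8 and 20.9 in MC_Het and 32.6, 35.2 and 44.2 in MC_WT. The lowest tumor was 2 times the highest melanocyte sample, and the adjusted p was the smallest of the 31, with a log2 fold change of 1.95 (SE 0.27, adjusted p = 2.12e-05, limma). By level per length it ranked 2 of 31 in MA and 6 in melanocytes, at 162 RPKM in MA and 25.2 RPKM in melanocytes. *noc2l* (ENSDARG00000001754) encodes the homologue of yeast Noc2, which escorts pre-60S particles, and in mammals also binds histones. Its level was 72.7, 131, 97.8, 128 and 109 rescaled CPM in MA, against 28.7, 58.1 and 28.3 in MC_Het and 14.9, 28.8 and 22.8 in MC_WT. The nearest melanocyte sample was MC_Het2, still below MA1, with a log2 fold change of 1.88 (SE 0.30, adjusted p = 8.47e-05, limma). *wdr12* (ENSDARG00000003287) encodes a WD-repeat subunit of the PeBoW complex, needed for 28S rRNA. Its level was 23.6, 35.9, 76.5, 42.7 and 63.4 rescaled CPM in MA, against 18.1, 32.00 and 34.2 in MC_Het and 7.89, 20.3 and 15.6 in MC_WT. MA1 lay within MC_Het, MA3A and MA3C were the highest, and MA was higher with a log2 fold change of 1.17 (SE 0.38, adjusted p = 0.0172, limma). That call ended with the fish block (adjusted p = 0.0652, limma) and without MA3A.

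The PeBoW complex joins *pes*, *bop1* and *wdr12*, and its genes did not have the same values. *bop1* was at 39.1 ± 14.3 rescaled CPM in MA and 12.1 ± 4.999 in melanocytes (SD, n = 5 and 6), with a log2 fold change of 1.61 (SE 0.35, adjusted p = 0.00137, limma). *pes* was at 86.6 ± 27.9 rescaled CPM in MA and 60.5 ± 13.5 in melanocytes (SD, n = 5 and 6), with a log2 fold change of 0.46 (SE 0.27, adjusted p = 0.175, limma). Differences between these 3 genes were not tested. *nol9*, a polynucleotide kinase of pre-rRNA cleavage in human cells, was at 41.04 ± 8.70 rescaled CPM in MA and 11.5 ± 6.47 in melanocytes (SD, n = 5 and 6; log2 fold change 1.87). Smaller positive values belonged to *nop16* (log2 fold change 0.68) and *gnl3*, the GTPase nucleostemin (0.63), and both calls ended with the fish block. The call of *nop16* also ended without MA1, MA3B, MA3C, MC_Het1 or MC_Het3, and that of *gnl3* without any single sample other than MA3B and MC_WT3. With limma fitted without a trend the call of *gnl3* ended as well. *noc3l* (log2 fold change 0.58, adjusted p = 0.141, limma), partner of Noc2 in yeast, and *rrs1* (0.48, adjusted p = 0.215, limma), whose yeast homologue acts in 60S assembly, did not pass. *nop2*, an rRNA cytosine methyltransferase, was at 41.8 ± 15.9 rescaled CPM in MA and 49.6 ± 10.8 in melanocytes (SD, n = 5 and 6). Its log2 fold change of -0.29 (adjusted p = 0.375, limma) was the only negative one, and it became 0.36 with CPM as deposited.

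Single genes were also tested without a fitted model. The 14 genes with all values above were mostly chosen for their change in these same samples, so their p values are a description and no independent evidence. An exact 2-sided permutation test of 5 MA against 6 melanocyte samples gave p = 0.00433 for *ebna1bp2*, *nhp2*, *noc2l*, *noc4l*, *nol6*, *npm1a* and *polr1c*, the smallest that this design allows, which follows from their lack of overlap. The exact test gave p = 0.00866 for *nolc1* and *nop56*, 0.013 for *polr1b*, 0.0173 for *gar1*, 0.0216 for *wdr12*, 0.039 for *wdr3* and 0.0476 for *fbl*. These values treat the 3 tumors of fish MA3 as separate samples.

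Melanoma was then compared with each melanocyte genotype in a fit of all 3 groups, which gives the change against each genotype on its own. Against MC_Het, 20 of 31 genes were higher and 0 lower, beside 20.5% and 25.2% of all genes, with a median log2 fold change of 1.26. Against MC_WT, 19 were higher and 0 lower, beside 19.4% and 25.1% of all genes, with a median of 1.24. At an unadjusted p under 0.05, 20 were higher than in MC_Het and 21 were higher than in MC_WT, and 0 were lower in either, as with edgeR and DESeq2. Both comparisons share the MA samples. Shares of all genes were not counted at the unadjusted threshold, nor for genes that passed in both comparisons or in a single comparison. Genes that passed in both numbered 15: *bop1*, *dkc1*, *ebna1bp2*, *nhp2*, *noc2l*, *noc4l*, *nol11*, *nol6*, *nol9*, *nolc1*, *npm1a*, *polr1c*, *rrp12*, *rrp9* and *utp15*. Without MC_WT1, 12 of the genes remained higher than MC_WT, and *dkc1*, *nol6*, *nolc1*, *nop56*, *rrp9*, *utp15* and *wdr43* did not. The share of all genes in that fit was not counted.

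Some of these calls depended on the fish, the tool or single samples. With fish as a random block, 19 genes remained higher than MC_Het and 17 remained higher than MC_WT, beside 17% and 15.9% of all genes, and the calls of *fbl* over MC_Het and of *nop56* and *utp15* over MC_WT ended. With the MA3 tumors averaged, 18 and 17 remained, beside 17.2% and 16.1% of all genes, and the calls of *fbl* and *pwp2h* over MC_Het and of *bop1* and *utp15* over MC_WT ended. With edgeR *utp15* passed against neither genotype. Its call over MC_WT also ended with no filter on low values and without MA2, MA3A, MA3B or any single MC_WT sample. The call of *nol6* over MC_WT ended without MA3A, and that of *nop56* without MC_WT2. Over MC_Het, *fbl*, *nolc1*, *polr1b* and *pwp2h* lost their calls without MC_Het1 or MC_Het3, *utp15* without MC_Het1, and *fbl* without MA3B.

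*gnl3*, called over all melanocytes, passed against neither genotype (adjusted p = 0.0769 over MC_WT and 0.136 over MC_Het, limma). The remaining 9 calls were made against a single genotype. *fbl*, *gar1*, *nop16*, *polr1b* and *pwp2h* passed against MC_Het, and *nop56*, *wdr12*, *wdr3* and *wdr43* passed against MC_WT. For *gar1* the log2 fold change was 1.73 over MC_Het (adjusted p = 0.000945) and 0.45 over MC_WT (adjusted p = 0.307, limma). For *wdr12* it was 0.701 (adjusted p = 0.18) and 1.64 (adjusted p = 0.00505, limma). The difference between the 2 melanocyte genotypes is the test of such a split, and it is given next.

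**Figure D4:**
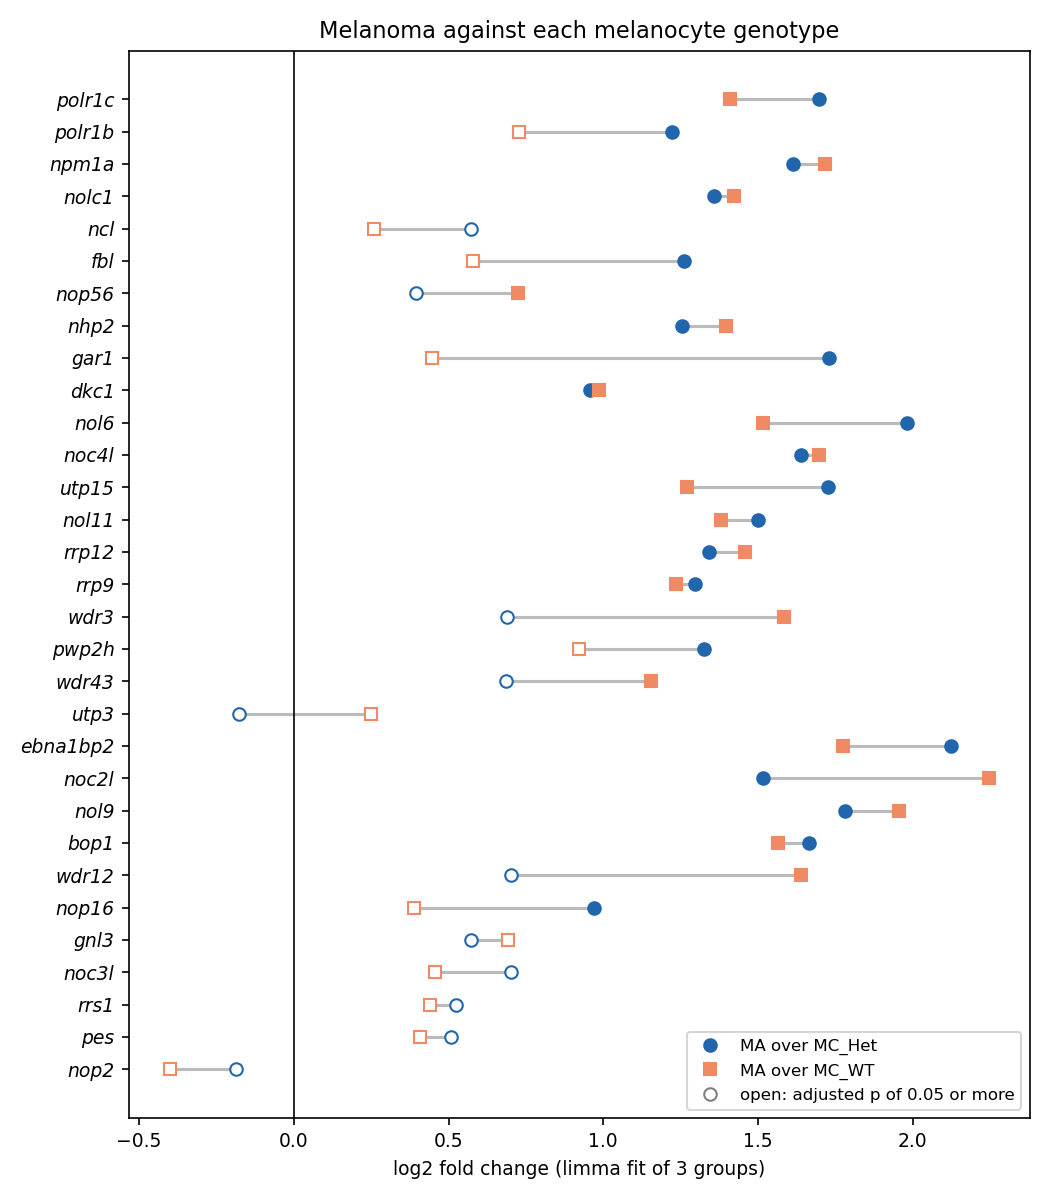
log2 fold change of MA over MC_Het (circles) and over MC_WT (squares) for each gene from the fit of 3 groups, with a grey line between them. Filled symbols passed an adjusted p under 0.05, and *gar1*, *wdr3* and *wdr12* have wide gaps between the symbols.

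Between the melanocyte genotypes no ribosome biogenesis gene passed the test. Of the 31 genes, 0 were higher and 0 were lower in MC_Het than in MC_WT, beside 0.353% and 0.161% of the 13044 genes tested. The count was 1 at an unadjusted p under 0.05 with limma, 2 with edgeR and 2 with DESeq2, beside 12.6% of all genes with limma, and the smallest adjusted p was 0.257 with limma, 0.283 with edgeR and 0.0933 with DESeq2. The median log2 fold change was -0.08. *gar1* had the smallest p, with a log2 fold change of -1.28 (SE 0.44, adjusted p = 0.257, limma), and its MC_Het samples, at 3.63 to 5.64 rescaled CPM, were all below its MC_WT samples, at 10.2 to 15.1. *wdr3* and *wdr12* came next, with a log2 fold change of 0.90 (SE 0.41, adjusted p = 0.4, limma) and a log2 fold change of 0.94 (SE 0.44, adjusted p = 0.422, limma), both with overlapping samples. MC_Het lay below MC_WT without overlap for 3 genes (*ncl*, *gar1* and *nop16*) and above it for 0, beside 8.95% and 9.15% of all genes. With 3 samples a group these tests do not show that the genotypes are alike. The groups differed in *BRAF*, *p53* and *mitfa* genotype together, and these cannot be told apart. They also differed in the sum of melanocyte markers, at 1293 to 5296 rescaled CPM in MC_Het and 494 to 1034 in MC_WT. The part of cell content in this comparison was not tested.

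Other genes of ribosome biogenesis were counted next. From a list of 144 other ribosome biogenesis genes, 111 were in the table and 109 were tested, and 60 rose and 0 fell in MA over all melanocytes (58 and 62 rose with edgeR and DESeq2), with a median log2 fold change of 0.90, beside the 23.8% of all genes that rose. No gene of this list fell at an unadjusted p under 0.05 either. The summed level of the 111 genes overlapped between MA and MC_Het. It was 4369 to 7301 rescaled CPM in MA, 4537 to 5502 in MC_Het and 3763 to 4037 in MC_WT. All 6 of its box C/D genes rose (*ruvbl1*, *ruvbl2*, *snu13a*, *snu13b*, *znhit3* and *znhit6*, named after their values were seen), which cover the snoRNP core and its assembly factors. Of its other roles, 7 of 11 rRNA transcription genes and 2 of 3 scaffold and chaperone genes rose. In the same list, 22 of 40 small-subunit, 23 of 47 large-subunit and 0 of 2 box H/ACA genes rose. The 3 genes with the smallest adjusted p were *wdr36*, *nip7* and *snu13b*. *wdr36*, a homologue of yeast Utp21, was at 83.1, 144, 131, 69.97 and 98.7 rescaled CPM in MA, against 20.4, 28.2 and 23.2 in MC_Het and 20.9, 23.02 and 37.9 in MC_WT, and its tumors did not overlap the melanocytes, with a log2 fold change of 1.98 (SE 0.25, adjusted p = 9.96e-06, limma). *nip7*, a 60S maturation factor, was at 34.05, 54.1, 25.2, 45.3 and 38.3 rescaled CPM in MA, against 3.98, 5.52 and 5.82 in MC_Het and 10.2, 9.18 and 14.7 in MC_WT, with a log2 fold change of 2.19 (SE 0.33, adjusted p = 5.54e-05, limma). *snu13b*, which encodes a protein that binds kink-turns of box C/D and U4 RNA, was at 46.3, 105, 65.98, 94.9 and 58.2 rescaled CPM in MA, against 14.1, 29.1 and 14.9 in MC_Het and 21.8, 21.7 and 30.6 in MC_WT, with a log2 fold change of 1.70 (SE 0.29, adjusted p = 0.000156, limma).

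Genes of neighbouring processes were counted in the same way, and the all-gene shares for this comparison are again 23.8% higher and 27.7% lower. Of 63 mitochondrial ribosomal proteins tested, 33 rose and 0 fell (median 0.79). Of 68 cytosolic ribosomal proteins, 16 rose (23.5%, close to the share of all genes) and 3 fell (4.41%, below the share of all genes). The 3 were *rps9*, *rpl19* and *rps19*, named after their values were seen. The median of the 68 was 0.39, and 50 of their changes were positive, beside 51.2% of all genes. The counts depended on scaling: with CPM as deposited, beside 42.2% of all genes, 96 of the 109 other ribosome biogenesis genes, 56 of the 63 mitochondrial and 56 of the 68 cytosolic ribosomal proteins rose, and 0 fell in each. Of 17 proliferation genes, 15 rose and 0 fell (median 2.67). In the mitochondrial and proliferation lists 0 fell at an unadjusted p under 0.05, with edgeR or with DESeq2. The sum of the proliferation genes was 785 to 1566 rescaled CPM in MA, against 142 to 328 in MC_Het and 200.4 to 387 in MC_WT. The part of proliferation in the levels of ribosome biogenesis genes was not tested. Myc proteins are transcription factors known to act on many ribosome biogenesis genes. Of 10 Myc network genes, 2 rose and 1 fell. Their median log2 fold change was -0.28, and 6 of the 10 changes were negative. The log2 fold change was 3.39 for *mycn*, 0.81 for *mych* and -1.98 for *mycb*, all 3 named after their values were seen. The sum of the 10 genes overlapped, at 952 to 1875 rescaled CPM in MA and 912 to 1380 in melanocyte samples. The part of Myc genes in the levels of ribosome biogenesis genes was not tested.

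**Figure D5:**
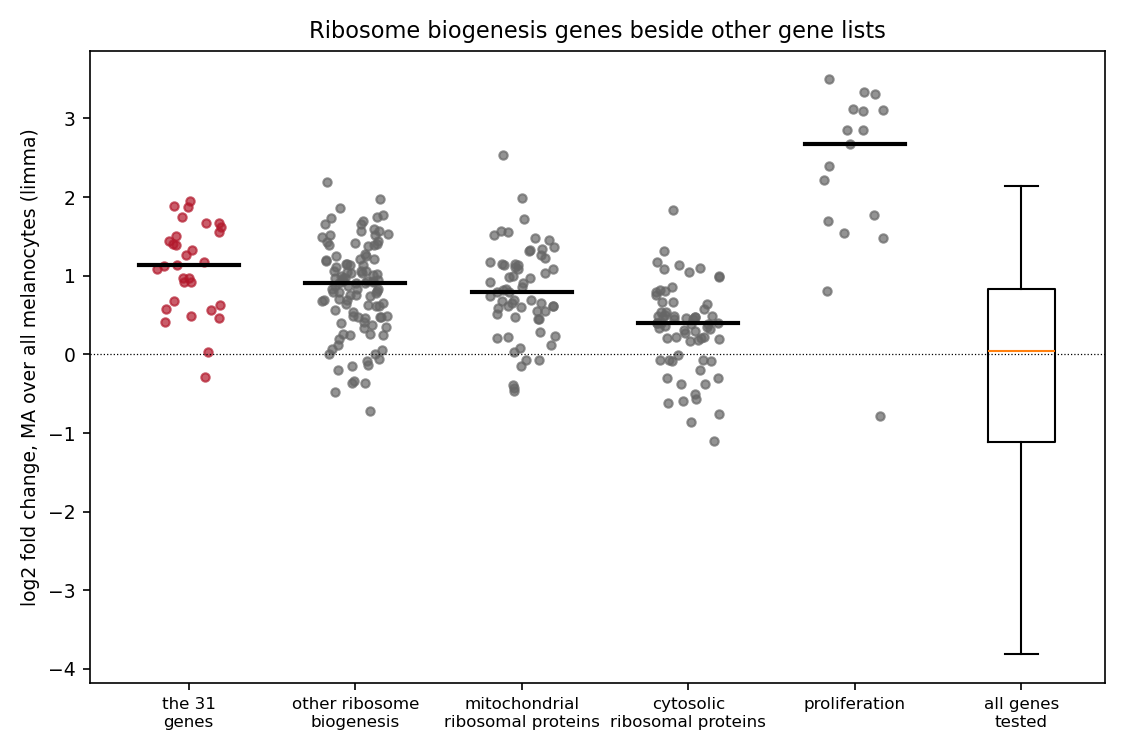
log2 fold change of MA over all melanocytes for single genes (points) with the list median (line), and for all genes tested (box from the lower to the upper quartile, whiskers at the 5th and 95th percentiles). Medians are 1.14 for the ribosome biogenesis genes, 0.90 for the other ribosome biogenesis genes, 0.79 for mitochondrial and 0.39 for cytosolic ribosomal proteins, 2.67 for proliferation genes and 0.04 for all genes.

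The *utp4* gene, listed as *cirh1a* and outside the selection, encodes a t-UTP protein. Its mean was 106 ± 38.2 rescaled CPM in MA (SD, n = 5), against 60.8 ± 27.4 in melanocytes (SD, n = 6), with a log2 fold change of 0.83 (SE 0.31, adjusted p = 0.033, limma). That call ended with the fish block (adjusted p = 0.0636, limma), with the MA3 tumors averaged (adjusted p = 0.0702, limma) and with edgeR (adjusted p = 0.051). MC_Het3, at 112, lay within the range of the tumors, at 71.2 to 161. Among the 31 genes the spread between samples of a group was moderate, with a median coefficient of variation of 28.5% in MA, 24.2% in MC_Het and 27.4% in MC_WT. In MA it ran between 7.24% for *nop16* and 56.5% for *npm1a*.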

How the data were processed

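RNA-seq of 11 samples of sorted zebrafish cells was used: 5 MA, 3 MC_Het and 3 MC_WT. The authors made cDNA with a SMARTer kit, sequenced single-end reads and aligned them to GRCz11 with STAR. Their methods name RSEM on RefSeq genes and DESeq2, while the table lists Ensembl identifiers, so the counter is not known. The deposited CPM are counts per 1000000 library reads, and the deposited RPKM are CPM per gene length. Rows sharing an identifier had the same values and were used once, leaving 24441 genes of 24874 rows. Low CPM were whole multiples of 1 read, to within 0.02 reads (100% in each sample), which gave totals of 14718024 to 22612463 reads. These bound counting error only, since amplified reads are not independent molecules.

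Between-sample scaling used median-of-ratios factors. The filter kept genes reaching 1 CPM in 3 or more of the samples fitted. The test was limma (version 3.58.1, R 4.3.3, trended prior), 2-sided, applied to log2(rescaled CPM + 1), and p values were adjusted by Benjamini-Hochberg. On this scale low genes show smaller fold changes than they have. MC_Het was compared with MC_WT within the 6 melanocyte samples. Alternatives were other scalings, pseudocounts, filters and thresholds, the RPKM table and limma without a trend. Others were edgeR 4.0.16 and DESeq2 1.42.0 on recovered reads, fish as a block, the MA3 tumors averaged, a replicate block and the omission of single samples. The fits of MA over all melanocytes and of MC_Het over MC_WT were checked on simulated data, and the other fits were not. The simulated samples were independent and had no scaling shift between groups. The check therefore does not cover tumors of the same fish or the choice of scaling. All samples share a sequencing run number.

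The genes and lists were chosen with earlier results of these data known. Values of every sample are given for the 2 called genes of each role with the largest change, the smallest adjusted p, the 3 highest mean RPKM and the 3 smallest p between genotypes, and for the 3 other ribosome biogenesis genes with the smallest adjusted p. Sequences and the promoter motif search were not used here.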

Additional observations from a re-analysis of the deposited data

Results flagged for a closer look

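In MA, 2 of the 31 genes had a sample far from the other tumors. Far meant a gap to the nearest tumor above 0.71 of the range (Dixon's rule for 5 samples). Independent, normally distributed values pass that limit in about 1 in 20 groups. A count of 2 among 31 is close to that rate, but MA3A, MA3B and MA3C share a fish, so the rate need not hold here. The share of all genes was not counted. Distances were taken on rescaled CPM, not on the log2 scale of the tests. *npm1a* was at 1234 rescaled CPM in MA2, and the next tumor was at 577, a gap of 0.714 of the range of the 5 tumors. *rrs1* was at 23.4 rescaled CPM in MA1, and the nearest tumor was at 60.2, a gap of 0.751 of the range. The *npm1a* call in MA over melanocytes was kept with MA2 left out. Without MA1, *rrs1* passed the test in MA over melanocytes, which it did not with all 5 tumors.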

How the results depend on the processing

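No called gene among the 14 described in full changed direction under the alternatives computed, and the medians of the 3 melanoma comparisons stayed positive. The median of MC_Het over MC_WT, near 0, lay between -0.16 and 0.09. With CPM as deposited, the median log2 fold change of the 31 genes was 1.80 over all melanocytes, 1.92 over MC_WT and 1.86 over MC_Het. The medians of all genes were 0.58, 0.62 and 0.52 on that scale. Of the 31 genes, 30 were higher than in MC_WT, beside 37.8% of all genes. For 23 every tumor was above every melanocyte sample, beside 25.9% of all genes. The ratio of summed means was 3.38 rather than 2.14. The fish block and the averaged MA3 tumors each gave 16 higher genes over all melanocytes, beside 19.1% and 18.5% of all genes. With the strict threshold of 1e-06 for the adjusted p in limma, together with a log2 fold change over 1, 0 of the 31 genes were higher in each of the 3 melanoma comparisons, beside 0.129% to 0.544% of all genes. With DESeq2 on recovered reads some of the 31 genes passed this threshold in each comparison, as named above. Leaving out each sample in turn gave 18 to 25 higher genes over all melanocytes, 12 to 20 over MC_WT (12 without MC_WT1) and 15 to 22 over MC_Het. With limma fitted without a trend, 22 of the 25 calls over all melanocytes remained, and those of *fbl*, *gnl3* and *nop56* ended. With no filter on low values 24 remained, and that of *fbl* ended. Shares of all genes were not counted for these fits or for the fits without a sample. For the 14 genes, 1039 alternative values kept their side of the threshold, 47 lost a call and 7 gained one. The cause was not tested.

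MC_Het and MC_WT share replicate numbers, but same-numbered samples did not deviate together (correlations -0.01, -0.12 and -0.07). With a replicate block, 0 genes were higher, 0 were lower and the median log2 fold change was -0.08. Tumors of 3 fish and melanocytes of 6 limit the precision of each value, and 7 of the 31 genes had under 15 rescaled CPM on average in melanocytes.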
